A study of Mus musculus with 6 samples.

Results

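The genes of the nuclear pore and of nuclear transport were compared between 2 sorted mouse blood progenitor populations. The set held 42 named genes, 29 nucleoporins and 13 transport receptors or Ran cycle genes. A gene was measured where a probe set of the array was annotated to that gene alone, which held for 40 of them, 27 nucleoporins and 13 transport genes, among 18193 genes in all. Nup35 and Tpr had no such probe set and were not analysed here. Where a gene had several probe sets, the one that represents it was chosen by its mean log2 intensity over all 6 arrays, whichever population was brighter, so the choice of probe set did not use the difference between the populations. The list of genes itself was drawn up with earlier results of these arrays known.

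The arrays come from a study of the RNA-binding protein Musashi 2 in blood formation. Both populations were sorted by flow cytometry from wild-type C57BL/6 mice, with 3 arrays each. The LSK gate (low for lineage markers, Sca1+, Kit+) holds blood stem cells and multipotent progenitors, and the LK gate (low for lineage markers, Sca1-, Kit+) holds progenitors that are committed to the myeloid and erythroid lineages. RNA was amplified linearly before it was put on Affymetrix arrays for mouse transcripts. The labels do not say whether the samples came from separate animals, so p-values measure only the spread between these samples, which may be technical.

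Nuclear pores are large protein channels through the nuclear envelope. An outer ring coats the membrane on both faces, an inner ring lines the channel, transmembrane nucleoporins anchor it, and nucleoporins rich in phenylalanine and glycine fill it and let carriers pass. Importins carry proteins in and exportins carry proteins and RNA out. The GTPase Ran gives the direction: Rcc1 loads it with GTP in the nucleus and Rangap1 makes it hydrolyse GTP in the cytoplasm.

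The 250 bases before the transcription start are shown for 4 of the 8 members that passed the test between the populations, those whose window held at least 1 of the motifs searched, so that the letters stand beside the values. The windows are from RefSeq on build GRCm38.p6, written 5′ to 3′ in the direction of the gene, and capitals mark the motifs. The window of Kpna2 is chr11:106999526-106999775 on the minus strand, with a CCAAT box that begins 25 bases before the start. That of Ranbp2 is chr10:58446602-58446851 on the plus strand, with CACGTG 87 bases before the start. The first of 2 listed windows of Nup37 is chr10:88146742-88146991 on the plus strand, with CCGGAAG 83 bases and CCAAT 20 bases before the start. The window of Aaas is chr15:102350760-102351009 on the minus strand, with CCGGAAG 46 bases before the start.
Kpna2: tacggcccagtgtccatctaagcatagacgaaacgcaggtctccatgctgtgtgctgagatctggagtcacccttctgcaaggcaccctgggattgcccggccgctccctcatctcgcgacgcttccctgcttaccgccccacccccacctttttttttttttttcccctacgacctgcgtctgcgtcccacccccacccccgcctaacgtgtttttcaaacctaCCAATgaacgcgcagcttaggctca
Ranbp2: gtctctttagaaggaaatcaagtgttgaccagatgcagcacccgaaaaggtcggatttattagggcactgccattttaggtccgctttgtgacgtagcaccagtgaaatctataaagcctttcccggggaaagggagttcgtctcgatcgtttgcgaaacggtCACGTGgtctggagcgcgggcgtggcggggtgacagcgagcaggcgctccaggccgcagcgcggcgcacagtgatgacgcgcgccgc
Nup37: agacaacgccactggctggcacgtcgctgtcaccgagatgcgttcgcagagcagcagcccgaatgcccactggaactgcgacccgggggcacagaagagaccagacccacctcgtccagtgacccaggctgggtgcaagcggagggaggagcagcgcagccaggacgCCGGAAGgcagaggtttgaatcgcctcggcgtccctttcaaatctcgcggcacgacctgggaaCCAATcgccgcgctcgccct
Aaas: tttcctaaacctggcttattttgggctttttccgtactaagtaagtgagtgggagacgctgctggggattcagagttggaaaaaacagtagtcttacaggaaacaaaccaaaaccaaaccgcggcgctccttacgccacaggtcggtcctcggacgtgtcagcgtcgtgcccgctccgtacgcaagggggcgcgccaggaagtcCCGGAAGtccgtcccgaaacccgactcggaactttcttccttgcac

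Genes of the pore and of transport were lower in LSK than in LK where they differed. On the log2 scale, where 1 unit is a 2-fold difference, 8 of the 40 measured members (20.0%) fell in LSK and 0 rose (limma, Benjamini-Hochberg adjusted p under 0.05 over all genes). Of all 18193 genes, 2.89% passed as lower and 3.84% as higher. Brighter genes passed more often. Of the 6016 genes with a mean log2 of at least 5 over the 6 arrays, 7.43% were lower. Of the 36 members at that level, 19.4% were lower. At an unadjusted p under 0.05, 27 members were lower and 0 were higher, against 11.9% and 10.5% of all genes. At that p, 1537 of the 6016 brighter genes were lower and 1097 higher. The importin Kpna2 had the largest difference, 4.02-fold, and the other 7 (Nup205, Aaas, Nup37, Cse1l, Ranbp2, Nup85 and Ndc1) differed by 1.84-fold to 2.51-fold.

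The differences leaned the same way beyond the genes that passed. The LSK mean was below the LK mean for 38 of the 40 members (95%), against 53.4% of all genes and 56.6% of the 6016 genes with a mean log2 of at least 5 over the 6 arrays. All 3 LSK arrays lay below all 3 LK arrays for 27 members (67.5%), against 14.8% of all genes and 26.3% of those brighter genes. The reverse order was found for 0 members. The median difference of the members was -0.49, against -0.02 over all genes and -0.11 over the brighter genes. RMA sets arrays to a common distribution, but the deposited arrays still differed. Their upper quartiles of intensity were 25.6, 22.1 and 25.8 in LSK and 24.9, 20.8 and 24.3 in LK. After renewed quantile normalization 13 members and 4.61% of all genes were lower at the adjusted threshold. In bulk RNA, fewer cells of a type and less RNA per cell cannot be told apart.

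**Figure D1:**
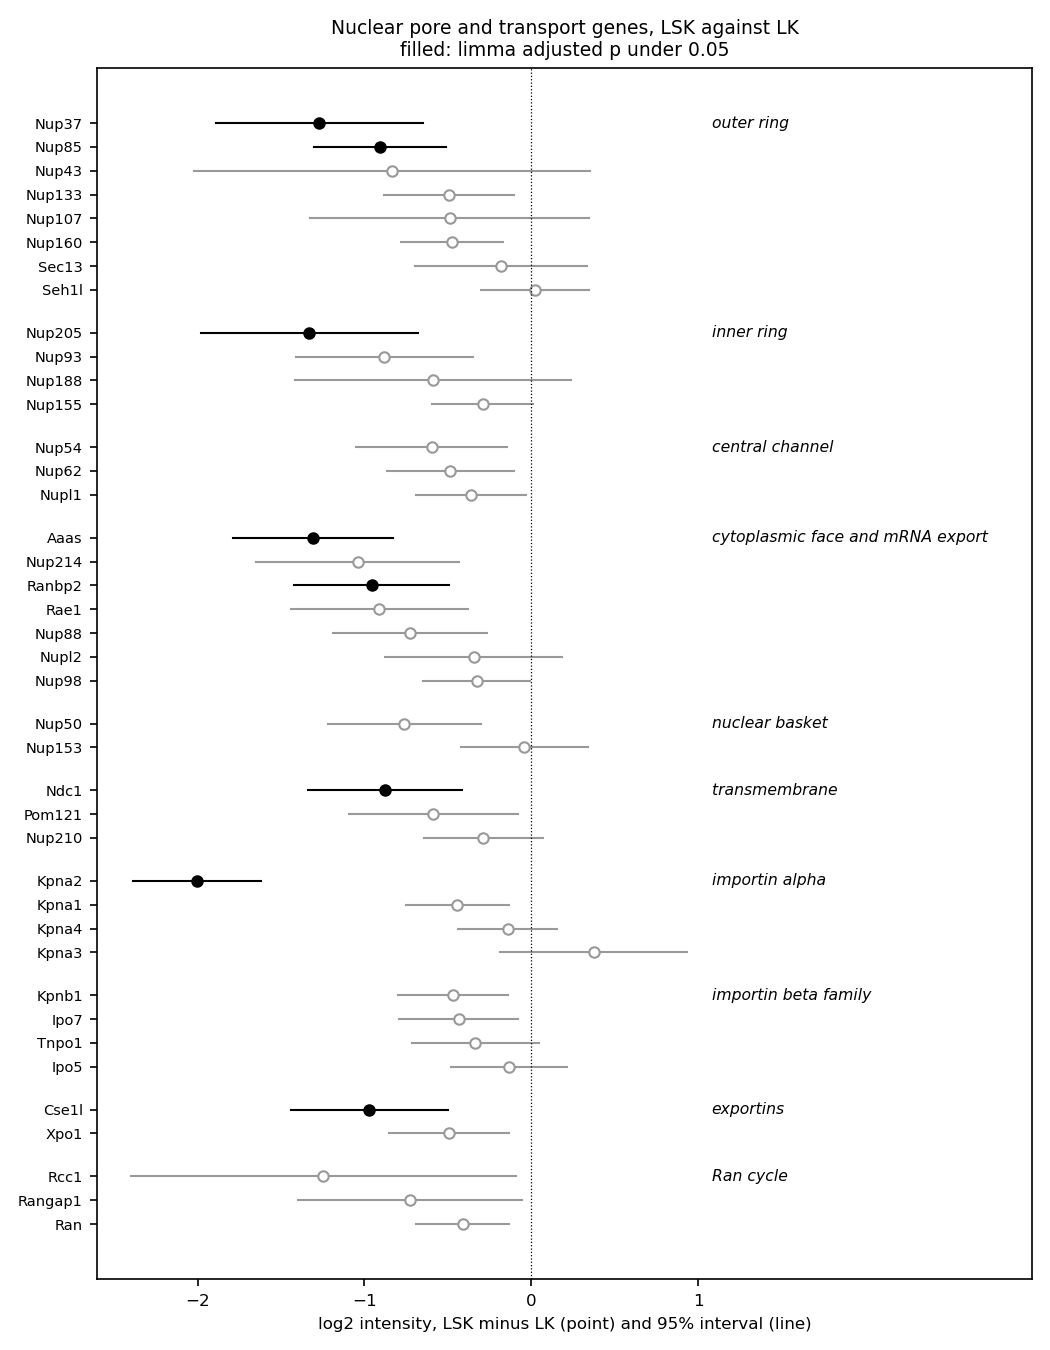
LSK minus LK log2 intensity of the 40 measured members, ordered by role, with bars for the 95% confidence interval (limma, 3 arrays per population). The differences run from -2.01 for Kpna2 to 0.37 for Kpna3, and the 8 marked members are those that passed the adjusted test.

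Arrays of the same replicate number deviated together, and a fit with that number as a block is given beside the main one. With the block 15 of 40 members (37.5%) were lower and 0 higher, against 7.36% of all genes as lower and 7.02% as higher. Of the brighter genes 17.4% were lower with the block, and of the 36 members at that level 38.9%. The 7 members added were Nup214, Nup50, Nup54, Nup93, Rae1, Rangap1 and Rcc1. The count also moved with single arrays, as did that of all genes. When LSK replicates 1, 2 and 3 were left out in turn it was 2, 3 and 6 (0.434%, 1.12% and 3.77% of all genes lower), and for LK replicates 1, 2 and 3 it was 2, 4 and 1 (1.53%, 1.71% and 0.418%). Without both replicate 2 arrays, which had the lowest upper quartiles of intensity in their populations, it was 4 (0.912% of all genes). Kpna2 passed in all 6 of the fits that left out 1 array, with limma adjusted p from 0.00553 to 0.0190.

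Among the carriers, the importin alpha proteins bind the nuclear localisation signal of a cargo and link it to importin beta. Kpna2, one of these adaptors, had log2 intensities of 6.81, 6.94 and 7.28 on the LSK arrays and 8.92, 9.06 and 9.08 on the LK arrays. The groups were far apart relative to their spread, with the highest LSK array well under the lowest LK array. Its means were 7.01 ± 0.24 in LSK and 9.02 ± 0.09 in LK (SD, n = 3), a difference of -2.01 (SE 0.16, 95% interval -2.39 to -1.62, limma adjusted p = 0.00239).

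The other importin alpha genes did not pass. Kpna1 differed by -0.45 (limma adjusted p = 0.0956), with all LSK arrays below all LK arrays, and by -0.63 on its brightest probe set without a suffix that marks shared probes (just past the threshold), and Kpna4 by -0.14 (adjusted p = 0.577). Kpna3 was the member with the largest difference in the other direction. It read 8.04, 7.48 and 7.25 in LSK and 7.48, 7.10 and 7.08 in LK. LSK was higher at each replicate number, but the groups overlapped. The means were 7.59 ± 0.41 and 7.22 ± 0.23 (SD, n = 3), 1.29-fold apart (log2 difference 0.37, 95% interval -0.19 to 0.93, adjusted p = 0.425). With the mean of its probe sets the sign turned (-0.17), as it did with the RNA quality covariate (-0.06). Its other probe sets gave -0.14, and -0.74 at log2 means of 2.88 and 3.62, near the bottom of the range. The importin alpha adaptors were thus 1 lower and 3 not past the test.

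The exportin Cse1l returns importin alpha to the cytoplasm after its cargo is released. Its log2 intensities were 7.13, 6.99 and 7.63 in LSK and 8.33, 8.06 and 8.27 in LK, with no overlap. LSK replicate 3 was its highest LSK array. The difference was -0.97 (SE 0.20, 95% interval -1.44 to -0.50, 1.96-fold, limma adjusted p = 0.0371). It passed without LSK replicate 3 (adjusted p = 0.0184) and missed the threshold without any of the other arrays (0.125 and 0.0890 for LSK replicates 1 and 2, and 0.0988, 0.0662 and 0.130 for LK replicates 1, 2 and 3). Xpo1, the main exportin for proteins with a leucine-rich export signal, differed by -0.49 (adjusted p = 0.111), again without overlap.

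The importin beta family gave 0 of 4 past the test. Kpnb1, which is importin beta itself, differed by -0.47 (limma adjusted p = 0.0978), Ipo7 by -0.44 (0.143), Tnpo1, the carrier of many RNA-binding proteins, by -0.34 (0.281) and Ipo5 by -0.13 (0.660). The groups of 2 of the 4 did not overlap.

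None of the 3 Ran cycle genes passed, and the replicate block changed the call for 2 of them. Rcc1, the exchange factor that makes Ran-GTP on chromatin, read 6.19, 4.60 and 5.62 in LSK and 7.16, 5.93 and 7.06 in LK. The replicate 2 array was the lowest in each population, and the groups overlapped, since LSK replicate 1 lay above LK replicate 2. LSK was nevertheless lower within each of the 3 replicate numbers. Its difference of -1.25 (95% interval -2.40 to -0.09) had a limma adjusted p of 0.191, and of 0.00939 with the block. Rangap1 differed by -0.73 (0.190, with the block 0.0485) with overlapping groups. Ran differed by -0.41 (0.0886, with the block 0.0957) and its groups did not overlap. The Ran value came from a probe set named with an x, the maker's mark for probes that may bind other transcripts. The probe set of Ran without that mark gave 0.11 (adjusted p = 0.818). Rangap1 likewise came from a probe set marked with an s, as shared by several transcripts. Its probe set without a mark gave -0.04 (0.907). That probe set had log2 means of 2.55 and 2.59, at the bottom of the range, so it can hardly show a difference. The remaining Rangap1 probe set, also with a suffix, gave -0.85 at means of 3.81 and 4.66 (limma p adjusted over all probe sets 0.0721).

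**Figure D2:**
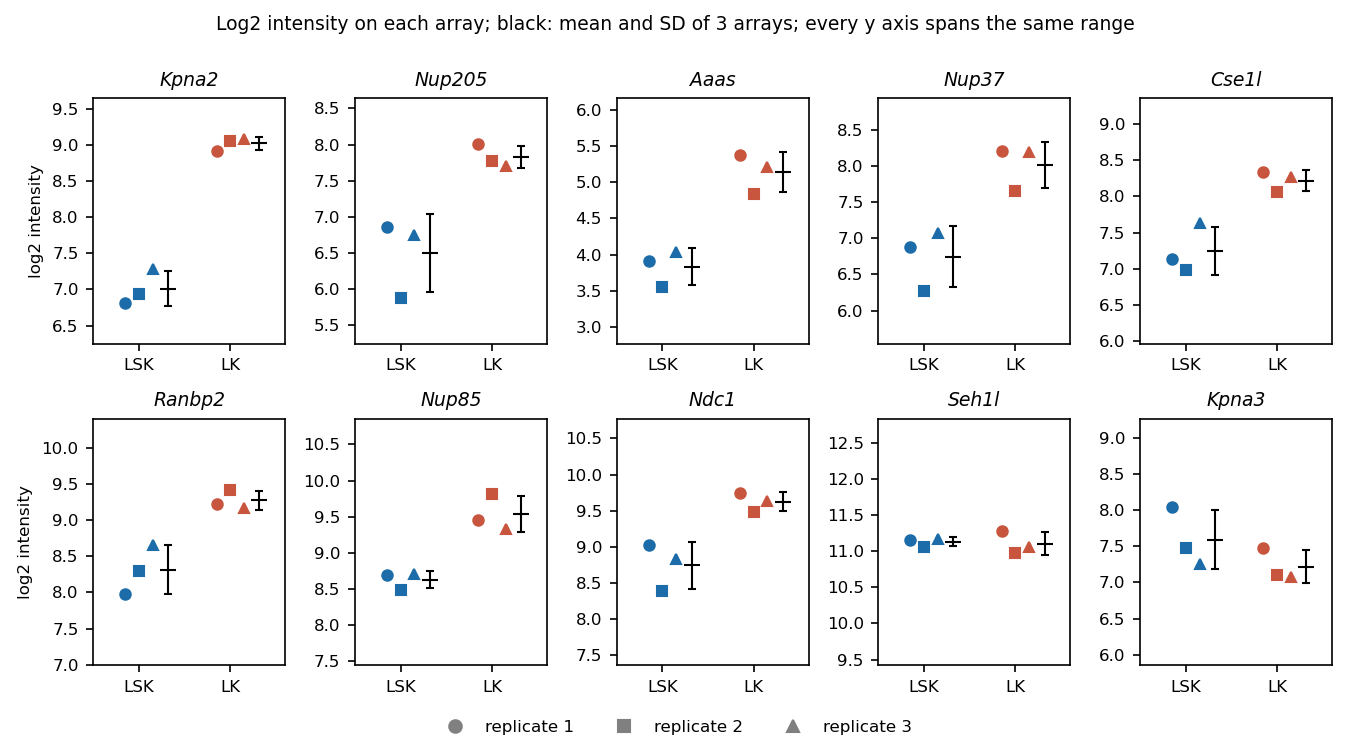
Log2 intensity on each of the 6 arrays for the 8 members that passed the test and for Kpna3 and Seh1l, the members with a difference above 0, with the mean of each population as a bar. The LSK and LK points are apart for the 8 and overlap for Kpna3 and Seh1l.

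The outer ring, or Y complex, had 2 of 8 measured genes lower. Nup37, a propeller protein of this complex, had log2 intensities of 6.88, 6.27 and 7.08 in LSK and 8.20, 7.65 and 8.19 in LK. The replicate 2 array was lowest in each population, and the groups did not overlap. Its difference was -1.27 (SE 0.26, 95% interval -1.89 to -0.65, 2.41-fold, limma adjusted p = 0.0376, with the block 0.00715). It missed the threshold when LSK replicate 1 or 2 was left out (0.105 and 0.0715), and likewise for LK replicate 1 or 3 (0.101 and 0.134).

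Nup85, which sits on an arm of the Y complex, read 8.69, 8.49 and 8.70 in LSK and 9.46, 9.81 and 9.33 in LK. All LSK arrays were below all LK arrays, and LK replicate 2 was the highest. The difference was -0.91 (SE 0.17, 95% interval -1.30 to -0.51, 1.87-fold, adjusted p = 0.0285). Leaving out any 1 array took it over the threshold, with adjusted p of 0.0904, 0.0772 and 0.0512 without LSK replicates 1, 2 and 3 and of 0.0639, 0.0520 and 0.0668 without LK replicates 1, 2 and 3.

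Within the same ring the scaffold proteins Nup133, Nup160 and Nup107 differed by -0.49, -0.47 and -0.49 and did not pass (limma adjusted p of 0.133, 0.0796 and 0.488). The arrays of Nup107 overlapped. Nup43 had a difference of -0.84 (adjusted p = 0.393) and the widest LK spread of the members, an SD of 1.06. Its LK arrays read 5.95, 4.13 and 5.97, against 4.68, 4.22 and 4.63 in LSK. Only LK replicate 2 lay with the LSK arrays, and without it the adjusted p was 0.0234. Its probe set without a cross-hybridisation mark gave -0.15 (0.785). That probe set had log2 means of 2.66 and 2.80, at the bottom of the range, so it can hardly show a difference. Sec13, which is also a coat protein of secretory vesicles, differed by -0.18 (0.688).

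Seh1l, a Y complex protein that also works in a nutrient-sensing complex, did not follow the others. It read 11.16, 11.06 and 11.17 in LSK and 11.28, 10.97 and 11.06 in LK. The 2 sets of arrays lay over each other. The means were 11.13 ± 0.06 and 11.10 ± 0.16 (SD, n = 3), a difference of 0.02 with a 95% interval of -0.30 to 0.35 (adjusted p = 0.944). Its sign turned with the mean of its probe sets (-0.35) and without LK replicate 2 (-0.04).

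The inner ring had 1 of 4 measured genes lower. Nup205, one of its large scaffold proteins, read 6.87, 5.88 and 6.75 in LSK and 8.01, 7.78 and 7.71 in LK. LSK replicate 2 was far below the other LSK arrays, and the groups did not overlap. The difference was -1.33 (SE 0.27, 95% interval -1.98 to -0.68, 2.51-fold, limma adjusted p = 0.0381). Without LSK replicate 2 it was -1.02 and still passed (0.0322). With the mean of its probe sets it was -0.66 and did not pass (0.0658). That mean takes in a dimmer probe set at log2 means of 2.86 and 2.84, at the bottom of the range, which can hardly show a difference. It missed the threshold when LSK replicate 1 or 3 was left out (0.0716 and 0.0527), and likewise for LK replicates 1, 2 and 3 (0.102, 0.0830 and 0.115).

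Nup93, the linker that holds the inner ring together, differed by -0.88 (adjusted p = 0.0662, with the block 0.0233, and 0.0443 without LSK replicate 1), with no overlap. Nup188, the relative of Nup205, differed by -0.59 with overlapping groups (0.388) at log2 means of 3.89 and 4.48, and Nup155, which contacts the membrane, by -0.29 (0.234). The 3 proteins of the central channel, Nup62, Nup54 and Nupl1 (also called Nup58), line the transport path together. They differed by -0.49, -0.60 and -0.36. None passed (adjusted p of 0.130, 0.120 and 0.183), although all LSK arrays lay below all LK arrays for each of the 3. With the block, Nup54 passed (0.0414). The values of Nup62 and Nup54 came from probe sets marked x, and their probe sets without a mark gave -0.20 and -0.28 (0.739 and 0.711).

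The cytoplasmic face, where messenger RNA leaves the pore, had the lowest median of the role groups with at least 3 measured genes, -0.91 over 7 genes. All LSK arrays were below all LK arrays for 6 of these 7. This ranking rests on the brightest probe set of each gene. With the mean of probe sets Ranbp2 was at -0.50, Rae1 at -0.25 and Nup214 at 0.004. The other probe sets of Rae1 had log2 means from 2.17 to 3.25, at or near the bottom of the range. Those of Ranbp2 and Nup214 were above log2 4. Aaas and Nup88 have 1 probe set each and kept their values. The medians by role were not computed with that rule. Aaas, which encodes the pore protein ALADIN, read 3.91, 3.55 and 4.04 in LSK and 5.38, 4.84 and 5.20 in LK. The groups did not overlap, and the replicate 2 array was lowest in each. The difference was -1.31 (SE 0.20, 95% interval -1.79 to -0.83, 2.47-fold, limma adjusted p = 0.0163). The LSK level was near the bottom of the range of the array, where differences are compressed. Aaas missed the threshold without LSK replicate 1 (0.0668) or LK replicate 3 (0.0766) and passed in the other 4 such fits.

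Ranbp2 forms the cytoplasmic filaments, binds Ran-GTP and acts as a SUMO ligase. It read 7.98, 8.30 and 8.66 in LSK and 9.23, 9.41 and 9.17 in LK. LSK replicate 3 came closest to the LK arrays, and the groups did not overlap. The difference was -0.96 (SE 0.20, 95% interval -1.42 to -0.49, 1.94-fold, adjusted p = 0.0377). It passed without LSK replicate 3 (0.0240) and missed the threshold when LSK replicate 1 or 2 was left out (0.105 and 0.0941), and likewise for LK replicates 1, 2 and 3 (0.0890, 0.0900 and 0.114). With the mean of its 4 probe sets in place of the brightest the difference was -0.50 (0.467).

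Nup214 and Nup88, partners at the cytoplasmic face, differed by -1.04 and -0.73 without overlap and did not pass (limma adjusted p of 0.0609 and 0.0767). Nup214 passed with the block (0.0332) and without LSK replicate 3 (0.0431). Rae1, a messenger RNA export factor, differed by -0.91 (0.0603, with the block 0.0131, and -0.25 with the mean of its probe sets), and its partner Nup98 by -0.33 (0.212). Nupl2 differed by -0.35 (0.432) at log2 means of 3.05 and 3.40, at the bottom of the range.

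In the nuclear basket, which faces the nucleoplasm, Nup50 differed by -0.76 (adjusted p = 0.0662, with the block 0.0216) and Nup153 by -0.04 (95% interval -0.42 to 0.34, 0.913), whose sign turned in several alternatives. Of the 3 transmembrane nucleoporins, Ndc1 passed. This anchor of the pore in the membrane read 9.02, 8.39 and 8.83 in LSK and 9.75, 9.49 and 9.63 in LK. The replicate 2 array was lowest in each population, and the groups did not overlap. The difference was -0.88 (SE 0.19, 95% interval -1.34 to -0.42, 1.84-fold, limma adjusted p = 0.0459). Ndc1 missed the threshold when any 1 array was left out, with adjusted p of 0.0754, 0.0788 and 0.0796 without LSK replicates 1, 2 and 3 and of 0.120, 0.0789 and 0.146 without LK replicates 1, 2 and 3. It also missed it with all arrays when the mean of its probe sets was used (0.0544). The same held when each gene was read from a probe set without a suffix where it had one (0.0515). Pom121 differed by -0.59 (0.165) and Nup210 by -0.29 (0.329), and the arrays of both were also apart.

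The gene and its probe set are not the same thing on this array, and the 40 members had 110 single-gene probe sets. Of these, 93 were below 0 in LSK minus LK. At an unadjusted p under 0.05, 52 were lower and 4 higher, against 10.1% and 9.47% of the 34945 single-gene probe sets of the array. Of the 70 that do not represent their gene, 55 were below 0, 24 were lower and 4 higher at that p. Adjusted over all probe sets, 6 of the 70 were lower and 0 higher. These 6 were second probe sets of Ndc1 (-1.64), Nup155 (-1.64), Tnpo1 (-1.13), Nup54 (-0.97), Xpo1 (-0.84) and Nup85 (-0.83). The share of all probe sets past this adjusted threshold was not computed, so the 6 cannot be set against the array as a whole.

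Probe sets of the same gene disagreed most for Nup214. The brighter one read lower in LSK by the -1.04 given above. The other, dimmer one read 6.21, 5.91 and 5.21 in LSK and 5.06, 4.61 and 4.51 in LK. On this probe set all LSK arrays were above all LK arrays. The difference was 1.05 (limma p adjusted over all probe sets 0.0983), and the mean of both probe sets gave 0.004. The remaining 3 probe sets that were higher at an unadjusted p under 0.05 belonged to Ipo5 (0.61), Rae1 (0.47) and Kpna1 (0.45), all under log2 4 in each population. Which transcripts each probe set reads was not tested.

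**Figure D3:**
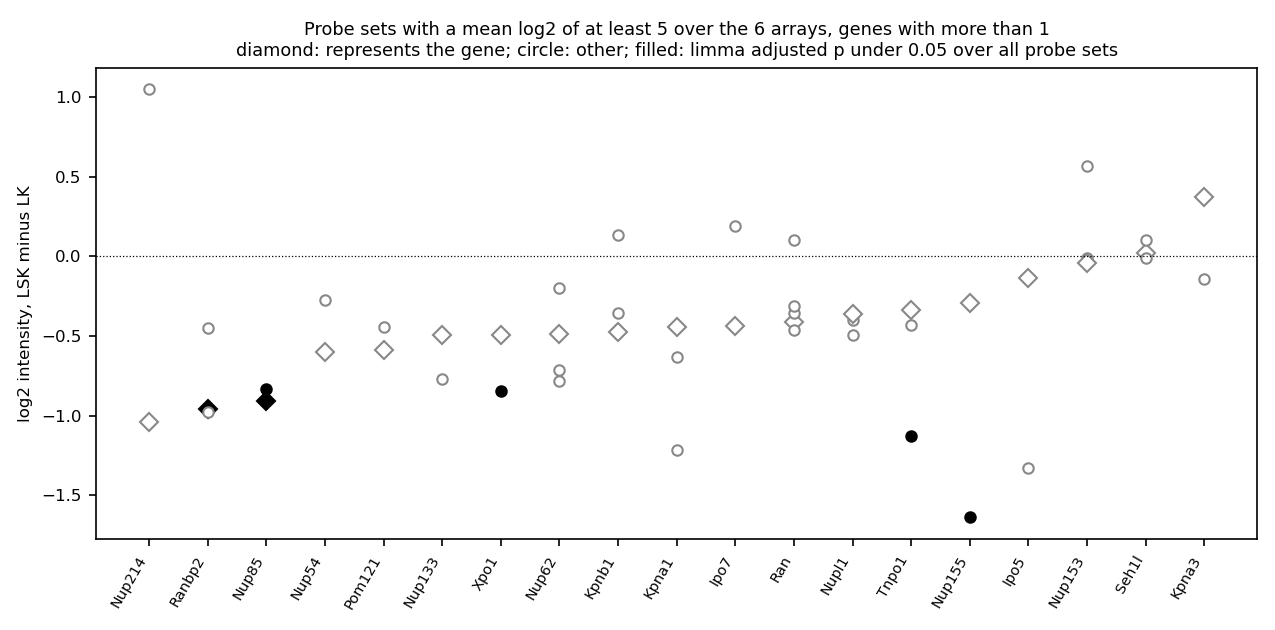
LSK minus LK log2 difference of the representing probe set against the other probe sets of the same gene, for the 19 genes with another probe set at a mean log2 of at least 5 over the 6 arrays. Of the 31 other probe sets, 25 lie below 0, and the probe set of Nup214 at 1.05 lies farthest above it.

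Within a population the members also varied from array to array. The median SD over the members was 0.24 in LSK and 0.17 in LK, against 0.21 and 0.20 over all genes. LSK replicate 2 was the lowest LSK array for 24 of the 40 members. In LK, replicate 1 was the highest for 23, and replicates 2 and 3 were the lowest for 20 and 18. The median of the members, each taken as its distance from its own mean over the 6 arrays, was -0.18, -0.39 and -0.19 on the LSK arrays and 0.35, 0.19 and 0.26 on the LK arrays. All LSK arrays were therefore under all LK arrays on this measure, for the nucleoporins and for the transport genes alike. The brighter genes were at 0.04, -0.20 and 0.01 in LSK and at 0.13, -0.05 and 0.09 in LK. Replicate 2 was thus the lowest array of each population over the brighter genes as well.

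**Figure D4:**
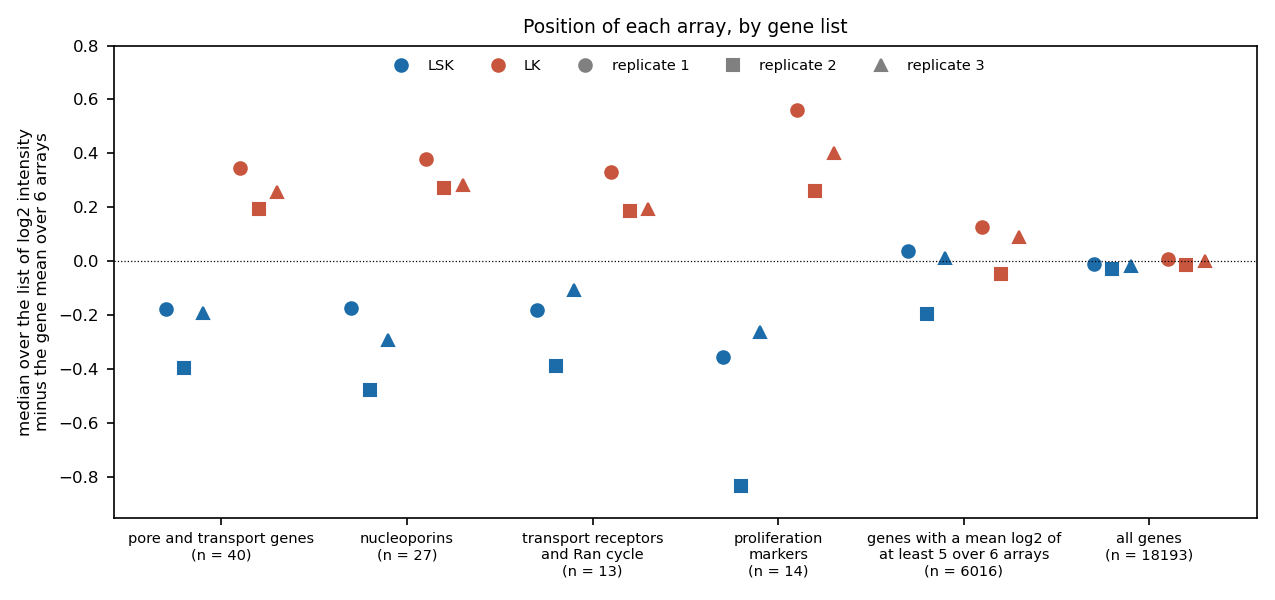
Median over a gene list of log2 intensity minus the gene's mean over the 6 arrays, by array, for the members, their 2 classes, the proliferation markers, the brighter genes and all genes. For the members the LSK arrays lie from -0.39 to -0.18 and the LK arrays from 0.19 to 0.35, while for all genes each array lies within 0.03 of 0. For the brighter genes the LSK arrays lie at 0.04, -0.20 and 0.01 and the LK arrays at 0.13, -0.05 and 0.09.

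Other measures moved with the member differences. Of the 14 measured proliferation markers 4 fell in LSK (Bub1, Mcm2, Mki67 and Cdk1, with differences of -1.78, -1.05, -0.98 and -1.25, limma adjusted p of 0.00714, 0.0296, 0.0383 and 0.0421), and the median over the 14 was -1.05. With the replicate block 9 of the 14 were lower. Leaving out single arrays, Bub1 passed in 6 of 6 fits, Mcm2 in 1, Mki67 in 0 and Cdk1 in 0. Their summed intensity ran from 5895 to 7232 on the LSK arrays and from 9571 to 10215 on the LK arrays. The LSK array that was lowest for the members, replicate 2, was the lowest for these markers and for the brighter genes too. Erythroid markers summed to 61.4 to 134 in LSK and 2420 to 6017 in LK, with 4 of 6 lower (5 with the block). Granulocyte and monocyte markers summed to 4304 to 8800 and 13155 to 24773, with 4 of 5 lower (5 with the block). Those 4, Mpo, Elane, Prtn3 and Ctsg, all missed the threshold when LSK replicate 1 or 2 was left out, and likewise for LK replicate 2 or 3 (limma adjusted p from 0.0802 to 0.149). Of the 4 erythroid markers that were lower, Gata1 passed in 3 of the 6 such fits and Klf1, Car1 and Ermap in 6. The part of the cell cycle and of the lineage mix in the member differences was not tested.

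RNA quality also differed between the arrays. The log2 distance from 5′ to 3′ probe sets of the control transcripts, which is larger in more truncated RNA, was 2.32, 2.32 and 3.30 in LSK and 3.26, 3.94 and 3.40 in LK. With this distance as a covariate, 0 of the 40 members and 0 of all genes were lower at the adjusted threshold, while 39 members were still below 0 and their median was -0.59. Kpna2 was then at -1.71 (limma adjusted p = 0.0754).

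The sort itself was checked against markers. All 7 measured markers of stem cells and early progenitors were higher in LSK, with a median difference of 3.55. Kit, which both gates require, had log2 means of 8.55 and 7.74 and did not pass (limma adjusted p = 0.124), although all LSK arrays were above all LK arrays and it passed as higher with the replicate block (0.0185). The 3 B cell and 3 T cell markers were near the bottom of the range in both populations, at log2 means from 2.32 to 3.50. The gene for Sca-1, the marker that separates the gates, was not analysed here.

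Genes of the pathway outside the set were read from 5 lists with 64 genes, 60 of them measured. Of these, 7 (11.7%) were lower in LSK and 0 higher, against 2.89% and 3.84% of all genes, and 7.43% of the brighter genes were lower. The median of the 60 was -0.32. At an unadjusted p under 0.05, 20 were lower and 6 higher, against 11.9% and 10.5% of all genes. With the replicate block 15 were lower and 2 higher, against 7.36% and 7.02%. The count of 7 was 1, 3 and 7 when LSK replicates 1, 2 and 3 were left out in turn, and 3, 3 and 1 for LK replicates 1, 2 and 3. The share of all genes lower in those fits ran from 0.418% to 3.77%.

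The exportins and Ran regulators had 2 of 10 lower. Xpo5, which exports microRNA precursors, read 3.92, 2.64 and 3.80 in LSK and 5.25, 5.21 and 5.13 in LK (difference -1.75, limma adjusted p = 0.0323). Its LSK mean of 3.45 lay near the median of all genes, 3.34, where differences are compressed. Xpot, the transfer RNA exportin, had means of 8.15 ± 0.37 and 9.43 ± 0.06 (SD, n = 3, difference -1.28, adjusted p = 0.0169). The LSK arrays of both were below all LK arrays. Among 7 other pore proteins, Ahctf1, which seeds new pores on chromatin after mitosis, differed by -1.42 (0.0187) and the pore-linked SUMO protease Senp1 by -0.95 (0.0414). Of 16 messenger RNA export factors, 2 were lower, the helicase Ddx39a by -1.23 (0.00714) and Mcm3ap by -0.73 (0.0356). The Ddx39a value came from a probe set marked x. The 10 other import receptors gave 0 past the test.

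These calls also rested on few arrays. Over the 6 fits that left out 1 array each, Ddx39a passed in 6, Xpot in 4, Ahctf1 in 3, Xpo5 in 2, and Senp1, Mcm3ap and Sun1 in 0. Xpot missed the threshold without LSK replicate 1 (0.0759) or LK replicate 3 (0.0766), and Ahctf1 missed it on leaving out LSK replicate 1 or 2 (0.0776 and 0.0585) or LK replicate 3 (0.0502). Xpo5 missed it without LSK replicate 1 (0.0609) or any of LK replicates 1, 2 and 3 (0.0838, 0.0776 and 0.108). For Senp1, Mcm3ap and Sun1, which is described with the envelope genes, the limma adjusted p without 1 array ran from 0.0514 to 0.140.

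Motifs in the promoters of the members were counted in the 250 bases before the start, on both strands. Windows were found for 35 of the 42 genes, 40 windows in all, and Nup85, Nup43, Seh1l, Nup35, Kpna1, Kpna3 and Cse1l had none in the RefSeq table used. CACGTG, an E-box bound by Myc and Max among others, was in 6 windows (15%), against 6.02% of all 32851 windows of the table and 9.18% of the 6349 windows of the brighter genes. These 6 belong to Ran, Ranbp2, Nup93, Nup54, Nup188 and Ipo7, of which Ranbp2 passed the expression test. GCGCATGCG, a form of the NRF1 site, was in 4 (10%, against 1.45% and 3.35%), those of Ran, Nup62, Nup50 and Nup107.

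CCAAT, the box bound by NF-Y, was in 17 windows (42.5%, against 33.8% and 35.1%). CCGGAAG, bound by ETS factors, was in 7 (17.5%, against 6.91% and 15.3%), and AGATAA, bound by factors of the GATA family, in 2 (5.0%, against 9.99% and 5.29%). The windows with CCGGAAG are those of Aaas, Nup107, Nup155, Nup37, Nup54 and Sec13. The 2 listed windows of Nup37 overlap, so its CCGGAAG and its CCAAT were each counted in both. The member windows had a median GC content of 63.6%, against 52.4% over all windows and 57.6% over the windows of measured genes. No motif contains another of the 5. The windows of Nup205 and Ndc1 held none of these letters. A match describes the letters of a window and shows no binding.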

How the data were processed

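RNA of 3 LSK and 3 LK samples was measured on 1-colour arrays. The deposited values are linear intensities. To make them the authors ran RMA (affy, R 2.11.0), as the submitters' processing notes record; the genome build is not given in the sources used here. Scan files and detection calls were not used here. Precision is limited by the small number of arrays. Of 45101 probe sets, 64 were controls, 34945 carried 1 gene symbol, 932 carried several and 9160 were not listed. Symbols were updated through the gene identifier to RefSeq GRCm38.p6 for 34741. The highest mean log2 picked 1 probe set for each of 18193 genes.

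Log2 intensities were computed here and compared with limma 3.58.1 in R 4.3.3 (two-sided, population as the only term, Benjamini-Hochberg over all genes, threshold 0.05). Each fold divides the brighter population by the dimmer. The members, lists and motifs were chosen with earlier results of these data known. By rule, every measured member is named, all 6 values are given for members past the threshold and for those differing the opposite way, and up to 3 genes past the threshold are named per other list. Values of Rcc1, Nup43 and the second Nup214 probe set were added after they were seen, as was the choice of Ipo11, Lemd3, Tor1aip1, Ddx39b, the lamins, Lbr, Syne1, Tor1a and Banf1, and the filter on the mean over 6 arrays. The fit was tested on simulated data.

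Same-numbered LSK and LK arrays correlated in their deviations at 0.42, 0.43 and 0.27, and differently numbered ones at up to 0.04, so the numbers were taken as pairs. This pairing comes from the data, not from the labels. The deviations sum to 0 within each population, so positive values at the same number lower those at different numbers. Both replicate 2 arrays also had the lowest upper quartiles of intensity in their populations. Whether the samples were truly paired was not tested. Of 15 array pairs, 0 held identical values. Alternatives were the block, normalization, a filter on dim genes, the probe set rule, the variance model, array weights, RNA quality and leaving out arrays.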

Additional observations from a re-analysis of the deposited data

How the results depend on the processing

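Of 638 member values under the alternatives, 537 kept their direction and side of the threshold, 51 lost the call, 35 gained it and 15 changed sign, and 35 of the 40 members were below 0 in every fit. The count of members lower (8) was 15 with the replicate block, 13 after renewed quantile normalization, 5 with the mean of all probe sets, 16 with array weights, 4 without both replicate 2 arrays, 0 with the RNA quality covariate and 1 to 6 when 1 array was left out. The share of all genes lower went from 2.89% to 7.36%, 4.61%, 2.1%, 7.15%, 0.912%, 0% and 0.418% to 3.77%, the same way as the members except without LSK replicate 3 (6 members, 3.77% of genes). The 6 nucleoporins became 11, 11, 3, 12, 3 and 0 under those settings, and 0 to 4 without 1 array. They became 10 when only genes at a mean log2 of at least 5 in either population were fitted. Aaas, Rae1 and Nup43 passed that filter only through LK, and 12.5% of the genes it kept were lower. The 2 transport genes became 4 with the block, array weights, trended robust variances or every probe set, 1 without both replicate 2 arrays, 0 with the covariate, and 1 to 2 without 1 array. The 7 other pathway genes lower became 15 with the block, 12 with array weights and 4 with the mean of probe sets. They were also 4 with suffix-free probe sets, used where a gene had one. They became 3 without both replicate 2 arrays, 0 with the covariate and 1 to 7 without 1 array. The 0 higher became 3 with cyclic loess, array weights or that filter, 2 with the block or trended variances, 1 with renewed quantiles or the mean of probe sets, and 0 to 1 without 1 array. The member median of -0.49 was -0.38 over every probe set and -0.56 to -0.46 without 1 array. The block changed no other member call than the 7 gained. Signs turned for Nup214 (0.004, mean of probe sets), Ran (0.11, suffix-free probe set), Nup153 (0.0629 cyclic loess, 0.17 mean of probe sets, 0.0453 array weights, 0.0474 without both replicate 2 arrays, 0.0303 covariate, 0.0035 without LSK replicate 3, 0.0938 without LK replicate 2, with a range of -0.12 to 0.0938 without 1 array), Seh1l (-0.35 mean of probe sets, -0.0076 without both replicate 2 arrays, -0.0307 covariate, -0.0428 without LK replicate 2) and Kpna3 (-0.17 mean of probe sets, -0.0576 covariate). The cause was not tested, other than that leaving out arrays leaves fewer samples. Signals under log2 4 lie at or near the bottom of the range and limit Nupl2 and the LSK levels of Aaas, Nup188 and Xpo5. They also limit the unmarked probe sets of Rangap1 and Nup43 and the dimmer probe sets of Nup205 and Rae1.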

Other observations

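The 17 genes of the nuclear envelope and lamina had a median difference of -0.04, with 9 below 0. At the limma threshold 1 was lower and 0 higher, against 2.89% and 3.84% of all genes. With the replicate block 4 were lower, Sun1 (0.0257), Syne1 (0.0260), Tor1a (0.0428) and Banf1 (0.0247), and 1 was higher, against 7.36% and 7.02% of all genes. The gene that fell without the block was Sun1, which ties the envelope to the cytoskeleton, at -1.0 (2.005-fold, adjusted p = 0.0446), and it missed the threshold in each of the 6 fits that left out 1 array (0.0582 to 0.125). The lamina genes Lmnb1 and Lmnb2 differed by 0.26 and -0.73, with overlapping arrays for both, and the lamin B receptor Lbr by -0.15 (adjusted p of 0.703, 0.277 and 0.535). At an unadjusted p under 0.05, 4 of the 17 were lower and 3 higher, against 11.9% and 10.5% of all genes. Lemd3, the inner membrane protein that was higher with the block, read 8.69, 8.55 and 8.22 in LSK and 7.68, 7.93 and 7.69 in LK, a difference of 0.72 (adjusted p = 0.0543, with the block 0.0365). Tor1aip1, a regulator of torsin, differed by 0.68 (0.0512). In both the LSK arrays were above all LK arrays.

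The import receptor Ipo11 had the largest difference above 0 among the other pathway genes. It read 10.12, 9.74 and 9.38 in LSK and 9.11, 8.05 and 8.52 in LK, with all LSK arrays above all LK arrays. The difference was 1.19 (limma adjusted p = 0.0716, with the replicate block 0.0193). Of the closely related helicases of messenger RNA export, Ddx39a fell by 1.23 in LSK and Ddx39b differed by -0.28 (adjusted p = 0.216). Both values came from probe sets marked x, which may bind other transcripts. The difference between these values was not tested, nor was whether the probe sets tell the 2 genes apart.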
